A study of Mus musculus with 4 samples.

Results

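Solute carriers are membrane proteins that move sugars, amino acids, ions, vitamins, metals and metabolites across the cell surface and the membranes of organelles. The genes described here are those with an Slc symbol that reached a set level in RNA libraries of mouse brain cells selected for CD11b. They were chosen by level. Protein-coding rows matched through GENCODE M21 to a symbol that starts with Slc and a family number were kept where the mean over the 4 libraries was at least 5 CPM, counts scaled to a library total of 1000000. Slc40a1, Slc11a1 and Slc11a2, all iron or metal transporters, were left out by name. This gave 200 genes of 371 protein-coding Slc rows, in a table of 55471 genes. Of the 371 rows, 37 had no count in any library. The number of members was 218 at a minimum of 3 CPM and 169 at 10 CPM. Since level chose these genes, their levels are a description and are not tested.

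All 4 libraries belong to 1 group. CD11b-positive cells were taken with magnetic beads from brains of mice aged 10 to 13 weeks, after 7 days on PLX5622 and a further 10 days off it, 17 days in all. PLX5622 blocks CSF1R, the receptor kinase that microglia need to survive, and microglia return to the brain once it is withdrawn. Poly(A) RNA libraries that keep strand were made from 300 ng of total RNA each. No untreated group was analysed here, so no effect of the drug is estimated, and cells that came back cannot be separated from cells that outlived the drug. The labels do not say whether the libraries came from separate animals, so the p-values speak of the spread among these 4 samples, part of which may be technical.

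The 4 libraries, named by the numbers in their labels, held 23036202 to 24487418 counts, and the minimum of 5 CPM corresponds to 115 to 122 counts. Solute carriers made up 1.29%, 1.41%, 1.23% and 1.46% of all counts in libraries 1 to 4, and their summed level was 12801, 13990, 12817 and 14227 CPM after TMM scaling, which is used for all levels below. The labelled cell type carried its markers. The 10 homeostatic microglial genes averaged 817 CPM or more, the lowest being Sall1, and none differed between libraries past the threshold used below. Markers of other brain cells were present too. Summed over 7 genes, choroid plexus markers stood at 11884, 11250.3, 2274 and 15642 CPM in libraries 1 to 4, endothelial markers (9 genes) at 754, 775, 180 and 638 CPM, and pericyte and smooth muscle markers (8 genes) at 624, 601, 93.9 and 405 CPM. Most of the choroid plexus sum was Ttr, at 11345, 10479, 2115 and 14562 CPM. The choroid plexus, endothelial, and pericyte and smooth muscle sums were each lowest in library 3. So were those of 6 erythroid markers, at 365, 174, 32.4 and 65.9 CPM, and of 5 fibroblast markers, at 45.9, 41.6, 11.4 and 49.6 CPM. Erythroid markers passed the threshold used below in 5 of 6 cases and all 6 were highest in library 1. Border macrophage markers, 4 of 6 past it, were all highest in library 1, with sums of 636, 311, 293 and 257 CPM. Over all genes tested, 3.28% passed and 34.2% were highest in library 1. In whole-sample RNA, fewer cells of a type and less RNA per cell cannot be told apart.

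Microglia are known to carry the fructose transporter Slc2a5, which few other brain cells use, along with amino acid exchangers, lysosomal exporters and zinc and proton carriers of phagocytic cells. The choroid plexus secretes cerebrospinal fluid and is built around bicarbonate, chloride and sulfate carriers. The endothelium of the blood-brain barrier brings glucose, lactate, thyroid hormone and large amino acids into the brain through solute carriers of its own. A list of expressed solute carriers from brain can therefore hold genes of several cell types.

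The promoters of 4 members that the results turn on are shown first, as RefSeq gives them on GRCm38.p6, each from 250 bases before to 50 bases after the annotated start, 5′ to 3′ on the strand of the gene. Slc36a1 exports amino acids from lysosomes, and Slc29a3, the lysosomal nucleoside carrier, had the highest level per kb of the lysosomal carriers listed below. Slc4a5, a sodium bicarbonate cotransporter, and Slc2a1, the glucose transporter of the blood-brain barrier, were among the members that were lowest in library 3. Capitals mark GTCACGTG on either strand, an E-box of the type read by lysosomal regulators of the TFEB family.
Slc36a1, chr11:55204090-55204389, plus strand: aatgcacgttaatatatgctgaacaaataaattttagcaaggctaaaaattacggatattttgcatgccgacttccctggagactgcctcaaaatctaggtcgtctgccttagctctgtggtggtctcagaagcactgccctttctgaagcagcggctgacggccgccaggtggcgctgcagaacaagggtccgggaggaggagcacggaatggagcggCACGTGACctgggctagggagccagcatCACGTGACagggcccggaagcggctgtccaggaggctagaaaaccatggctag
Slc29a3, chr10:60752733-60753032, minus strand: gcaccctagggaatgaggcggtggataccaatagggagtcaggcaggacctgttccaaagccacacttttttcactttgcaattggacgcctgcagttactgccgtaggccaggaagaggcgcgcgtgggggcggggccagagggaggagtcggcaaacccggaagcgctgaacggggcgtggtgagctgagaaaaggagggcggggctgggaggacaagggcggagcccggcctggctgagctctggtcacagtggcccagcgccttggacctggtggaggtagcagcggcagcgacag
Slc4a5, chr6:83237125-83237424, plus strand: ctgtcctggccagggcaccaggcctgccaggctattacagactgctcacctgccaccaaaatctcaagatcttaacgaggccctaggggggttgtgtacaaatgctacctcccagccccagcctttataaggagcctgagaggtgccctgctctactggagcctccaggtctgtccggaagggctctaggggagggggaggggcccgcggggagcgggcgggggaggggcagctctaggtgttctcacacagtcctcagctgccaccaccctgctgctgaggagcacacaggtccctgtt
Slc2a1, chr4:119108495-119108794, plus strand: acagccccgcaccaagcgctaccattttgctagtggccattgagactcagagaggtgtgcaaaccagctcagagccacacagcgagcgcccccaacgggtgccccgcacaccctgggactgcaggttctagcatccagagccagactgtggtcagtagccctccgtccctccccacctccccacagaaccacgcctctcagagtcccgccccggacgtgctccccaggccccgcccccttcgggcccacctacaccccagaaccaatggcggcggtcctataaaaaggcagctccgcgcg

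The Slc36a1 promoter held the E-box at 2 places, both on the minus strand, from -31 to -24 and from -3 to 5 relative to the start. The other 3 promoters held none of the motifs searched. The start that RefSeq gives for Slc4a5 lies inside the gene's GENCODE span. Promoters were found for 153 of the 200 members, 203 in all, and both strands were searched for 3 motifs. GTCACGTG was in 12 of the 203 (5.91%) and in 2.25% of all 32851 promoters of the same length. The members that held it were Slc12a7, Slc16a1, Slc20a1, Slc25a13, Slc25a14, Slc25a33, Slc31a2, Slc35a5, Slc36a1 and Slc37a3. The core GAGGAAGT read by the myeloid factor PU.1 was in 3 (1.48%) against 3.20% of all promoters, and TAATCC, a core read by Otx factors, in 8 (3.94%) against 7.06%. Median GC content was 61.3% in the promoters of members and 52.7% in all promoters. These are matches of letters and were not tested.

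Levels between genes are compared per kb of merged exonic length. The order at the top was led by sugar, amino acid and nucleoside carriers. Slc2a5 (ENSMUSG00000028976, GRCm38 chromosome 4, 150119283 to 150144169) had the highest level per kb of all members, 111 ± 18.8 CPM per kb (SD, n = 4, as for all values with ±). Its lead over Slc2a1 rests on library 3, without which the means were 109.9 and 108.9 CPM per kb, and in library 2 it stood at 96.4 beside 109 CPM per kb for Slc2a1. Slc3a2, the CD98 heavy chain that carries several Slc7 transporters to the cell surface, stood at 92.3 ± 8.21 CPM per kb, Slc2a1 at 89.6 ± 40.2 and Slc29a3 at 88.0 ± 21.9. These last 3 neighbours in the order differed by less than their SD. Slc7a8, a light chain of CD98 that exchanges neutral amino acids, came next with 80.9 ± 13.5 CPM per kb. The wide SD of Slc2a1 came with a low value in library 3, described below.

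**Figure D1:**
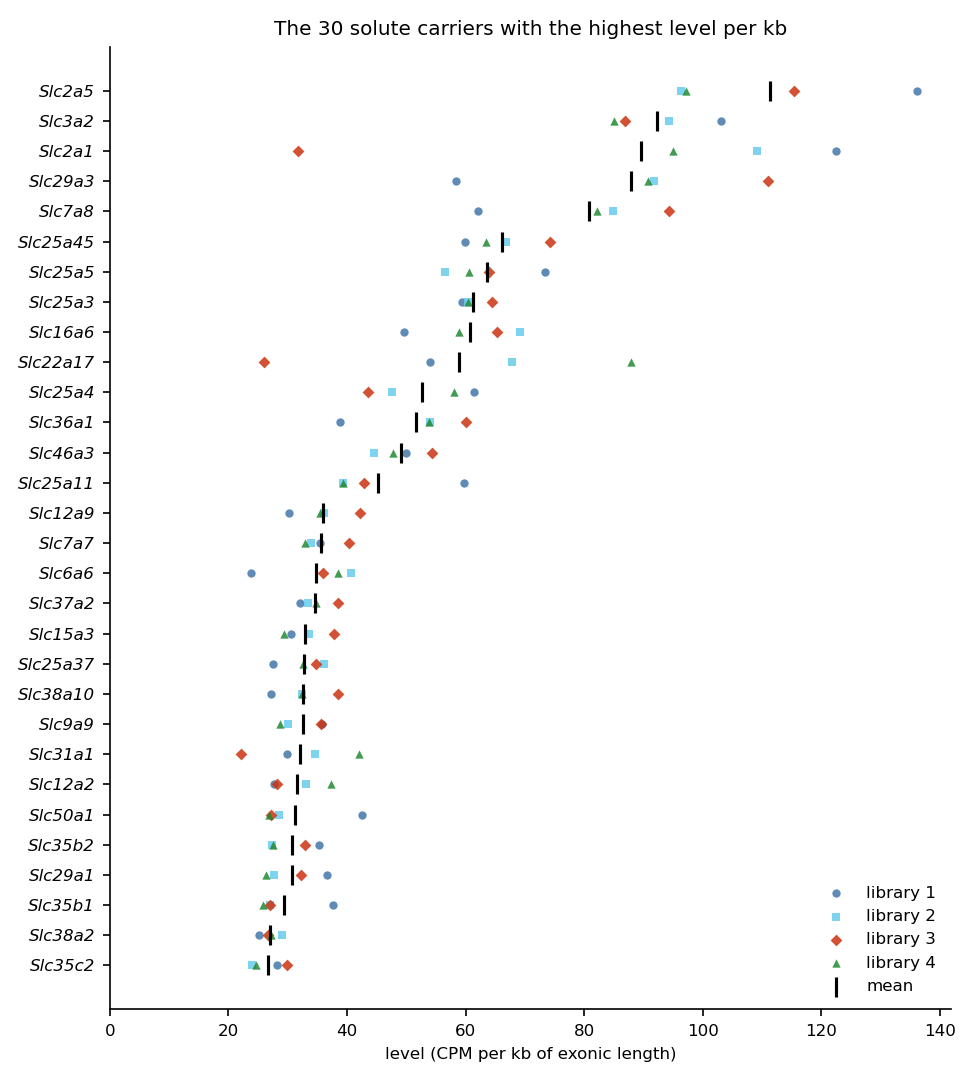
Level of the 30 solute carriers with the highest mean, in CPM per kb of exonic length, with 1 point per library and a bar at the mean. Slc2a5 leads at 111 CPM per kb, and Slc2a1 and Slc22a17 are far lower in library 3 than in the other libraries.

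Members were put in 13 classes by what their family carries. A family can hold exceptions, such as Slc5a6, a multivitamin transporter, and Slc5a5, an iodide transporter, which stand with the sugar carriers. The symbol also took in 4 genes that encode no transporter, the scaffold proteins Slc9a3r1 and Slc9a3r2 and the genes Slc7a6os and Slc4a1ap, and the other 196 carry transporter names. Mitochondrial carriers were the largest class with 36 members and the highest summed level per kb, 521 ± 11.9 CPM per kb, followed by the 28 amino acid carriers with 470 ± 25.9 CPM per kb. Sugar and inositol carriers (15 members) summed to 326 ± 51.5 CPM per kb and the 23 carriers of zinc, copper, magnesium and heme to 238 ± 19.4 CPM per kb. The 8 carriers of neurotransmitters, taurine and creatine summed to 56.3 ± 10.99 CPM per kb, the lowest sum among the transporter classes.

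**Figure D2:**
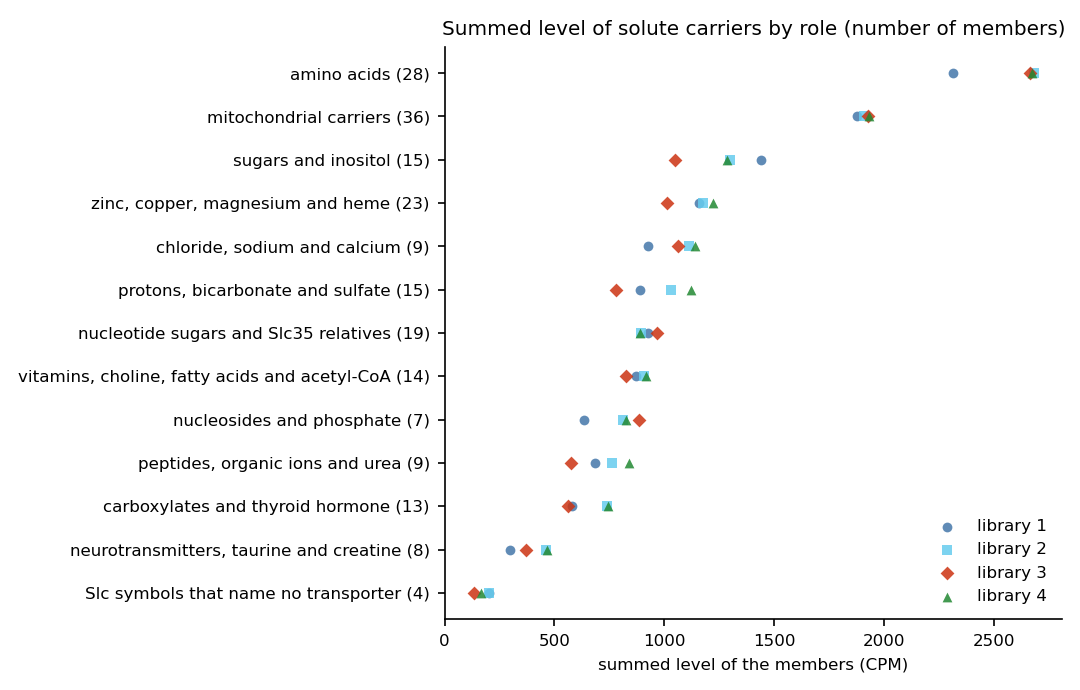
Summed level of the members of each class, in CPM, with 1 point per library and the number of members in brackets. Mitochondrial carriers lie close together at 1879 to 1934 CPM, while the sugar class is lowest in library 3 and the amino acid class lowest in library 1.

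Whether a gene varied between libraries more than others of its level was asked with edgeR, through the goodness of fit of a negative binomial model with 1 mean, adjusted over all 14112 genes tested, at a threshold of 0.05. Of the 200 members, 18 (9%) passed, and all 18 were lowest in library 3. The background was 3.28% of all genes tested, 4.34% of the 10467 protein-coding genes tested at 5 CPM or more, and 2.83% of all genes for those that both passed and were lowest in library 3. At an unadjusted p under 0.05 there were 30 members, beside 1350 of all 14112 genes tested and 1012 of the 10467 protein-coding genes. A gene that did not pass is not shown to be equal between libraries. The count rests on library 3 and on the test. Without library 3, 0 members passed (background 0.716%) and 7 had an unadjusted p under 0.05, a count given without a background. Without library 1, 18 passed (background 2.98%), 17 of them the same genes. Without library 2 there were 13 (background 1.94%) and without library 4 there were 11 (background 1.82%). The quasi-likelihood test in edgeR, which lets genes scatter around their trend, called 0 members against a background of 0%, with 20 members and 658 of all genes at an unadjusted p under 0.05. DESeq2 marked 0 members as dispersion outliers against a background of 0.0354%.

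Seen over all 200 members, 78 (39%) had their lowest level in library 3, against 29.2% of all genes tested. For 73 (36.5%) it was in library 1, near the 31% of all genes tested and 33.6% of protein-coding genes at 5 CPM or more. A level in library 3 under 0.5 times the mean of the other libraries was seen for 33 members (16.5%), against 13.6% of all genes tested. The median ratio of library 3 to the mean of the others was 0.96 for members and 0.996 for all genes tested. The median coefficient of variation was 12.9% for members and 16.02% for all genes tested. The 10467 protein-coding genes tested at 5 CPM or more are nearer to the members in level, and their median was 13.3%. Of that set, 24.7% were lowest in library 3 and 9.76% stood under 0.5 times the mean of the others. Its median ratio of library 3 to the others was 1.01. Scaling on the homeostatic microglial genes in place of TMM shifted all genes by -0.14 in library 3 and by 0.14 in library 4 on the log2 scale, and 116 members were then lowest in library 3, beside 51.9% of all genes tested.

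**Figure D3:**
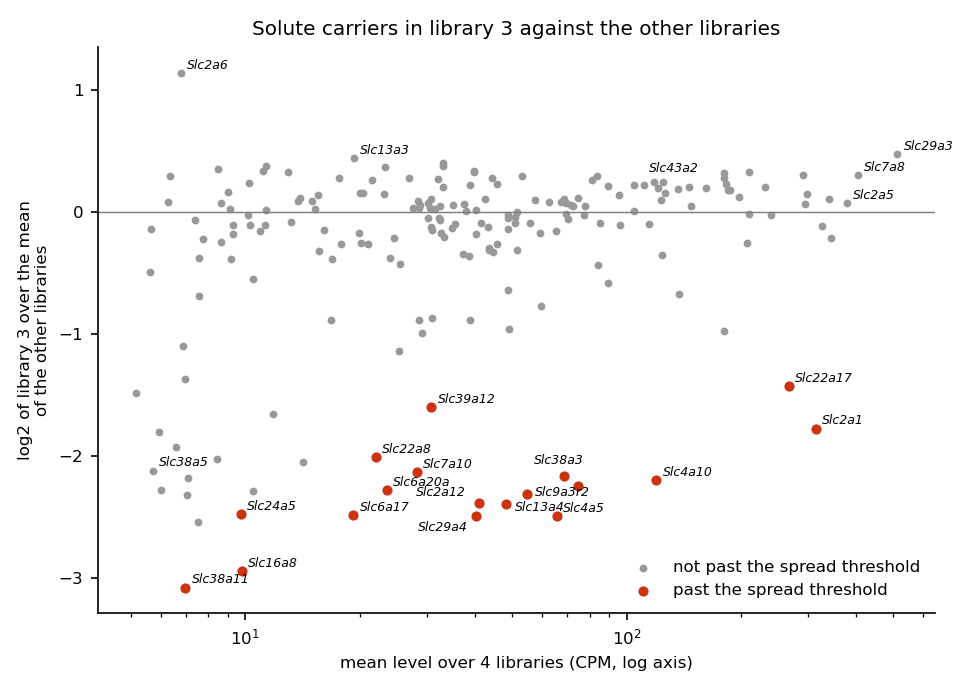
Each point is 1 of the 200 solute carriers, with its mean level in CPM on a log axis and the log2 of its library 3 level over the mean of the rest. The 18 members past the spread threshold all lie below 0, and Slc2a6 has the highest ratio.

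Amino acid carriers held the members of the CD98 system at graded levels. Slc7a8 had 311, 425, 472 and 412 CPM in libraries 1 to 4, lowest in library 1 and highest in library 3. Slc7a7, which exchanges cationic for neutral amino acids and is typical of macrophages, had 118, 112, 134 and 109 CPM. Within the 9 Slc7 transporters, Slc7a8 made 48.6% ± 5.92 of the summed level per kb, Slc7a7 21.7% ± 3.16 and Slc7a5, the large neutral amino acid transporter, 14.5% ± 2.65. Slc3a2 had 364, 333, 307 and 300 CPM, and none of these 4 genes passed the spread test. Slc7a11, the cystine and glutamate exchanger, had the lowest level per kb of all 200 members, 0.542 ± 0.0668 CPM per kb.

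Of the 28 amino acid carriers, 3 passed the spread test, beside 3.28% of all genes tested. Slc38a3, a glutamine carrier of the SNAT group, had 68.5, 82.4, 18.9 and 104 CPM in libraries 1 to 4 (edgeR adjusted p = 1.55e-05). Slc7a10, a light chain that carries small neutral amino acids such as serine and glycine, had 29.4, 32.7, 7.97 and 42.7 CPM (edgeR adjusted p = 0.0023). Both had their lowest level in library 3 and their highest in library 4. Slc38a11, a further Slc38 member, had 9.34, 10.2, 1.06 and 7.22 CPM (edgeR adjusted p = 0.0307), lowest in library 3 and highest in library 2. Its call was lost without library 1 (edgeR adjusted p = 0.0586) and without library 2 (edgeR adjusted p = 0.172), and that of Slc7a10 without library 4 (edgeR adjusted p = 0.0574). Slc38a5, Slc1a1 and Slc7a4 also had ratios of library 3 to the others of 0.23, 0.206 and 0.358, and did not pass.

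Carriers of the glutamate family that astrocytes use followed another pattern. Slc1a3, the glutamate transporter of radial glia and astrocytes, had 167, 125, 151 and 147 CPM in libraries 1 to 4, and Slc1a2, the main astrocytic glutamate transporter, had 30.4, 33.4, 47.0 and 48.6 CPM. Neither was lowest in library 3. Per kb, Slc1a3 stood at 17.2 ± 2.02 and Slc1a2 at 3.04 ± 0.707 CPM per kb. Beside them, the 6 astrocyte markers summed to 90.3, 72.3, 60.1 and 123 CPM, with 5 of 6 lowest in library 3 and 0 past the threshold. The part of astrocytes in the levels of both genes was not tested.

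Lysosomal amino acid carriers spanned a wide range, from 51.7 CPM per kb for Slc36a1 to 19.6 for Slc38a7 and 4.47 for Slc38a9. Slc36a1 had 218, 304, 338 and 303 CPM in libraries 1 to 4, Slc38a7, a lysosomal glutamine exporter, had 68.4, 84.4, 92.8 and 79.97 CPM, and Slc38a9, the lysosomal arginine sensor of the mTORC1 pathway, had 73.0, 73.3, 79.3 and 73.4 CPM. Each was highest in library 3 and lowest in library 1, and none passed the spread test. Slc38a2, an amino acid carrier of the cell surface that responds to starvation, had 222, 257, 236 and 241 CPM.

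Among sugar carriers, Slc2a5 and Slc2a1 made most of the glucose transporter family. Slc2a5 had 463, 328, 392 and 331 CPM in libraries 1 to 4 and did not pass the spread test. Slc2a1 (ENSMUSG00000028645, chromosome 4, 119108711 to 119137983) had 430, 383, 112 and 333 CPM, 3.42-fold lower in library 3 than the mean of the others (edgeR adjusted p = 0.000199). Slc2a5 made 50.4% ± 12.4 of the summed level per kb of the 7 Slc2 members and Slc2a1 37.9% ± 12.8. Slc2a12, a glucose carrier of the choroid plexus list, had 40.5, 49.4, 9.86 and 64.2 CPM (edgeR adjusted p = 1.83e-05). Slc2a3, the neuronal glucose transporter, had 8.49 to 11.4 CPM.

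Slc2a6, a glucose transporter relative of lysosomes, had the highest ratio of library 3 to the others, 2.2, among the 200 members. Its levels were 2.69, 6.05, 11.4 and 6.87 CPM in libraries 1 to 4, and it did not pass (edgeR adjusted p = 0.628). Libraries stood in the order 1, 2, 4 and 3, low to high, which was also the order of the summed level of 10 interferon response genes at 207, 374, 848 and 569 CPM. Of those 10, 6 passed the threshold, against 3.28% of all genes tested, and all 10 were highest in library 3, against 28.3%. The part of these interferon response genes in Slc2a6 was not tested. Slc37a2, a glucose-6-phosphate carrier of macrophages, had 213, 222, 256 and 231 CPM. Slc50a1, a sugar efflux protein, had 62.3 CPM in library 1 and 39.3 to 41.8 CPM in the others.

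Nucleoside carriers were dominated by Slc29a3 (ENSMUSG00000020100, chromosome 10, 60712072 to 60752794). It had 340, 535, 648 and 529 CPM in libraries 1 to 4, lowest in library 1 and highest in library 3, and did not pass (edgeR adjusted p = 0.745). Slc29a1, the equilibrative nucleoside transporter of the cell surface, had 147, 111, 129 and 106 CPM. Slc29a4, which carries monoamines at the plasma membrane, had 36.1, 49.0, 9.03 and 67.1 CPM (edgeR adjusted p = 3.59e-06), lowest in library 3. Per kb, Slc29a3 made 65.4% ± 8.91 of the summed level of these 3 genes. The phosphate carriers Slc20a1 and Slc20a2 averaged 43.3 ± 3.32 and 28.6 ± 9.05 CPM and did not pass.

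Bicarbonate carriers gave the lowest p of all members. Slc4a5 (ENSMUSG00000068323, chromosome 6, 83219828 to 83304945) had 47.4, 84.5, 14.7 and 116 CPM in libraries 1 to 4 (edgeR adjusted p = 3.46e-08). Slc4a10, a sodium-driven bicarbonate carrier of the choroid plexus, had 117, 135, 32.5 and 194 CPM (edgeR adjusted p = 1.06e-06). Both had their lowest level in library 3 and their highest in library 4. Slc4a2, a chloride and bicarbonate exchanger, had 168, 209, 104 and 238 CPM and did not pass (edgeR adjusted p = 0.192), except without library 1 (edgeR adjusted p = 0.0201). Slc4a7, another sodium bicarbonate carrier, had 102, 114, 124 and 105 CPM, with its highest level in library 3. Among proton exchangers, Slc9a9 of endosomes had the highest level per kb of this class, 32.5 ± 3.65 CPM per kb, and did not pass.

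Among chloride, sodium and calcium carriers, 1 of 9 members passed the threshold, a class too small to set against the background of 3.28%. Slc12a2, the sodium, potassium and chloride cotransporter NKCC1, had 302, 361, 308 and 407 CPM in libraries 1 to 4. Slc12a9, an orphan of the same family, had the highest level per kb of the class, 36.0 ± 4.90 CPM per kb, with Slc12a2 next at 31.6 ± 4.53, within an SD of it. Slc8a1, the sodium and calcium exchanger, had 144, 169, 179 and 156 CPM. The member that passed was Slc24a5, an exchanger of organelles, with 7.10, 11.1, 2.2 and 18.6 CPM (edgeR adjusted p = 0.0174). It overlaps the antisense gene Myef2 over 39.5% of its exons, and its call was lost without library 2 (edgeR adjusted p = 0.0727) or library 4 (edgeR adjusted p = 0.409).

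Carboxylate carriers were led by Slc16a6, a monocarboxylate transporter relative, with 243, 338, 319 and 287 CPM in libraries 1 to 4, a level that shares antisense overlap with Amz2 and Arsg. It made 50.9% ± 9.42 of the summed level per kb of the 11 Slc16 members. Slc16a8, a lactate carrier of the choroid plexus and the retinal pigment epithelium, had 12.4, 11.3, 1.63 and 13.9 CPM (edgeR adjusted p = 0.0153). It had its lowest level in library 3 and its highest in library 4, and the call was lost without library 2 (edgeR adjusted p = 0.0599) or library 4 (edgeR adjusted p = 0.0601). Slc13a4, a sulfate carrier that shares its family with dicarboxylate carriers, had 41.3, 58.8, 11.5 and 81.8 CPM (edgeR adjusted p = 1.78e-06). The other lactate carriers, Slc16a1, Slc16a3 and Slc16a7, averaged 38.7 ± 11.4, 42.6 ± 6.88 and 53.3 ± 6.23 CPM and did not pass.

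Of the carriers of neurotransmitters, taurine and creatine, 2 of 8 passed, beside 3.28% of all genes tested. Slc6a6, the taurine transporter, was the most abundant per kb at 34.7 ± 7.58 CPM per kb, with 201, 344, 304 and 326 CPM in libraries 1 to 4. Slc6a20a, a proline carrier, had 22.2, 27.8, 6.03 and 37.9 CPM (edgeR adjusted p = 0.00186), lowest in library 3. Without library 4 its call was lost (edgeR adjusted p = 0.0782), and 71.5% of its sequence was unique. Slc6a17, a vesicular amino acid carrier of neurons, had 16.7, 25.5, 4.31 and 30.3 CPM (edgeR adjusted p = 0.00189), also lowest in library 3. The 6 neuronal markers were at 0.644 to 8.75 CPM on average, and 7 of the 8 solute carriers listed for neurons lay below the minimum of 5 CPM. The vesicular glutamate and GABA carriers Slc17a6, Slc17a7 and Slc32a1 had means of 0.0413, 0.255 and 0.0419 CPM, and a floor of 3 counts is 0.119 to 0.132 CPM per library. Such floors cover counting error alone, because reads were not tagged by molecule.

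Among carriers of peptides and organic ions, Slc22a17 stood out by level. This gene (ENSMUSG00000022199, chromosome 14, 54906304 to 54913132) encodes a receptor for lipocalin-2 that belongs to the organic ion family by sequence. It had 244, 306, 117 and 397 CPM in libraries 1 to 4 (edgeR adjusted p = 0.00285), lowest in library 3 and highest in library 4, and its call was lost without library 4 (edgeR adjusted p = 0.111). Slc22a8, the organic anion transporter OAT3, had 23.0, 27.2, 6.74 and 31.2 CPM (edgeR adjusted p = 0.0233), and its call was lost without library 2 (edgeR adjusted p = 0.0979) or library 4 (edgeR adjusted p = 0.137). The lysosomal peptide and histidine carriers behaved otherwise. Slc15a3 had 168, 185, 207 and 162 CPM and Slc15a4 had 126, 141, 150 and 129 CPM, both highest in library 3 and neither past the threshold. Slc15a3 overlaps the antisense gene Tmem132a over 28.1% of its exons.

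Metal and heme carriers held 1 member past the threshold among 23, near the background of 4.34% of protein-coding genes tested at 5 CPM or more. Slc39a12, a zinc importer known from astrocytes, had 37.6, 29.3, 12.2 and 43.8 CPM in libraries 1 to 4 (edgeR adjusted p = 0.0433), lowest in library 3. Its call was lost without library 2 (edgeR adjusted p = 0.0819) or library 4 (edgeR adjusted p = 0.251). Slc31a1, the copper importer, had the highest level per kb of the class, 32.2 ± 8.33 CPM per kb, with 128, 148, 94.96 and 180 CPM, and did not pass. The zinc importer Slc39a6 had the lowest coefficient of variation of the 200 members, 2.55%, with 33.9 to 36.1 CPM. Slc48a1, which moves heme out of phagolysosomes, had 46.6, 54.0, 49.7 and 53.3 CPM.

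Mitochondrial carriers, carriers of nucleotide sugars and carriers of vitamins, choline and fatty acids had 0 members past the threshold among 36, 19 and 14, with 0, 0 and 2 at an unadjusted p under 0.05. Beside a background of 3.28% of all genes tested, 0 in classes of this size does not show that they varied less. The phosphate carrier Slc25a3 had 330, 335, 358 and 336 CPM in libraries 1 to 4 and 61.2 ± 2.25 CPM per kb. Slc25a45, a carrier of the inner membrane, had 166, 184, 205 and 175 CPM and the highest level per kb of the class, 66.1 ± 6.07 CPM per kb. The ADP and ATP exchangers Slc25a5 and Slc25a4 stood at 63.6 ± 7.19 and 52.7 ± 8.42 CPM per kb, the level of Slc25a5 being uncertain since 53.4% of its sequence was unique. Slc25a37 and Slc25a28, the mitoferrins that bring iron into mitochondria, had 32.7 ± 3.79 and 15.3 ± 1.35 CPM per kb. Among nucleotide sugar carriers, Slc35b2 of the sulfate donor PAPS led with 30.8 ± 3.95 CPM per kb. Slc46a3, a lysosomal carrier, led the vitamin class with 49.1 ± 4.13 CPM per kb, followed by Slc23a2, the ascorbate transporter, with 26.0 ± 4.54, and Slc46a1, the proton-coupled folate transporter, stood at 22.6 ± 0.726 CPM per kb.

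The scaffold proteins parted in pattern. Slc9a3r2, which anchors the sodium and proton exchanger Slc9a3, had 72.4, 79.9, 13.8 and 53.1 CPM in libraries 1 to 4 (edgeR adjusted p = 9.50e-06), lowest in library 3 and highest in library 2. Slc9a3r1, its relative, had 48.5 to 52.9 CPM in the 4 libraries.

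The 18 members past the threshold were set beside lists of solute carriers typical of brain cell types. The lists were chosen with earlier results of these data known, so a match is a description and not a test. Over all genes tested, 3.28% passed and 29.2% were lowest in library 3. In these lists 15 of the 18 had an entry, and Slc22a17, Slc24a5 and Slc9a3r2 had none. Of the 10 members on the choroid plexus list, 6 passed, 9 were lowest in library 3 and 10 were higher in library 4 than in library 1. Of the 12 members on the endothelial list, 4 passed and 11 were lowest in library 3. The list of mural cells and fibroblasts had 2 of 5 past the threshold, that of astrocytes 2 of 10 and that of neurons 1 of 1. Several genes of the endothelial list, among them Slc38a3 and Slc22a8, are also expressed in choroid plexus or astrocytes, so an entry in a list does not name the source of the RNA.

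The order of the other libraries separated the members that were low in library 3. Of the 18, 15 were highest in library 4, Slc9a3r2 and Slc38a11 in library 2 and Slc2a1 in library 1. Library 4 was the highest for 20.9% of all genes tested and for 27.5% of the 200 members. The choroid plexus markers were highest in library 4 in 7 of 7 cases, with a median ratio of library 4 to library 1 of 2.10, and all 7 passed the threshold. Endothelial markers were highest in library 4 in 1 of 9 cases, with a median ratio of 0.77 and 7 of 9 past the threshold, and pericyte and smooth muscle markers in 1 of 8, with a median ratio of 0.825 and 5 of 8 past it. Astrocyte markers were highest in library 4 in 5 of 6 cases, with a median ratio of 1.40 and 0 of 6 past the threshold. High levels in library 4 were thus not particular to choroid plexus markers. Slc4a5 had a ratio of library 4 to library 1 of 2.45 and Slc13a4 one of 1.98, while Slc2a1 had 0.775 and Slc9a3r2 had 0.733. Slc38a3, Slc7a10 and Slc39a12 had 1.51, 1.46 and 1.16. The members low in library 3 thus included genes with either order, and the part of these cell types in any of them was not tested. No marker of these lists was at 0 in all libraries.

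**Figure D4:**
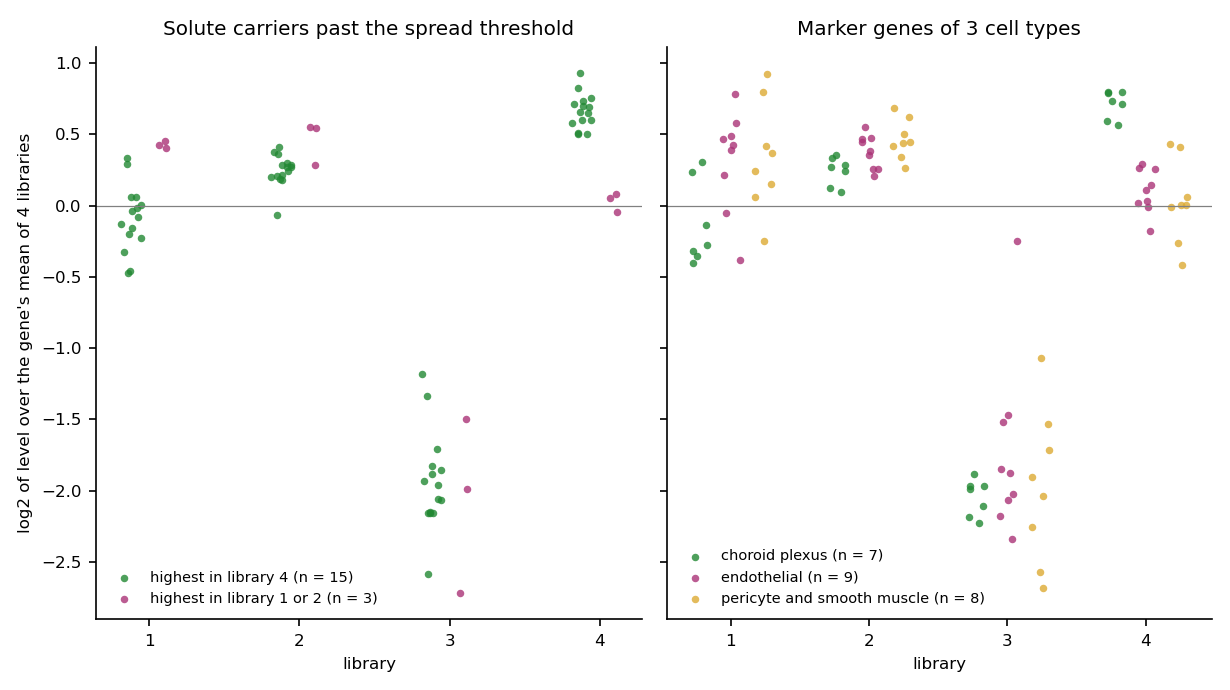
Level in each library relative to the gene's mean over 4 libraries, on the log2 scale, with 1 point per gene and library, for the 18 solute carriers past the spread threshold on the left, split by the library where they were highest, and for markers of choroid plexus, endothelium and mural cells on the right. Library 3 is lowest for every gene on the left and for 7 of 7, 8 of 9 and 8 of 8 markers on the right.

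Below the threshold the same direction was seen in 15 further members with a ratio of library 3 to the others under 0.5. Their means ran from 5.17 CPM for Slc7a4 to 25.2 CPM for Slc5a6. They included the lactate carrier relatives Slc16a4 and Slc16a12, with ratios of 0.205 and 0.172, the thiamine carrier Slc19a3 with 0.246, the riboflavin carrier Slc52a3 with 0.20 and the organic cation extruder Slc47a1 with 0.221. Over all 33, 25 were highest in library 4, against 20.9% of all genes tested and 27.5% of the 200 members. Of the 33, 26 were higher in library 4 than in library 1, a count given without a background. Members were kept by their mean over the 4 libraries, so a gene low in library 3 could enter through the other libraries. Slc16a12 and Slc52a3, for example, had 1.63 and 1.76 CPM in library 3, below the minimum of 5 CPM. These counts are therefore a description and add no separate support.

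Carriers typical of microglia and macrophages were not low in library 3. All 7 on that list were members (Slc2a5, Slc7a7, Slc9a9, Slc15a3, Slc29a3, Slc37a2 and Slc46a1), and 0 passed in edgeR at an adjusted p of 0.05. Of the 7, 0 were lowest in library 3, against 29.2% of all genes tested. Their summed level was 1575, 1620, 1911 and 1594 CPM in libraries 1 to 4. In library 3, 5 of 7 were highest, against 28.3% of all genes tested. The lysosomal list held 10 members of 11, with 0 past the threshold in edgeR and summed levels of 1208, 1525, 1742 and 1487 CPM. The entry below the minimum was Slc7a14, at 0.172 CPM. At an unadjusted p under 0.05 there were 0 members on either list. Lists of 7 and 10 members are short, and 0 past the threshold is near the background of 3.28% of all genes tested. The quasi-likelihood test called 0 and DESeq2 5 of all 14112 genes, so neither could tell these lists from the rest.

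Proteins that assist transporters were measured beside them. Bsg, basigin, which chaperones lactate carriers of the Slc16 family, had 980, 787, 456 and 826 CPM in libraries 1 to 4 and did not pass (edgeR adjusted p = 0.344). Emb, embigin, its relative, had 59.6, 54.8, 18.7 and 82.9 CPM (edgeR adjusted p = 0.00105). Atp1b1, a beta subunit of the sodium pump that powers many carriers, had 125, 179, 39.8 and 252 CPM (edgeR adjusted p = 1.72e-07), and Stk39, a kinase of the Slc12 cotransporters, had 69.3, 79.9, 17.5 and 113 CPM (edgeR adjusted p = 1.68e-06). In all, 4 of 11 partners passed, beside 3.28% of all genes tested, and each of the 4 was lowest in library 3.

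Transporters named outside the Slc symbols complete the picture, with 20 of 21 listed genes found in the table and 19 tested. Slco2b1, an organic anion transporter, had 1232, 1539, 1537 and 1373 CPM in libraries 1 to 4, and Ucp2, an uncoupling protein of the mitochondrial carrier family, had 555, 628, 786 and 671 CPM. Neither passed. The 2 that passed were the thyroid hormone and organic anion carriers Slco1c1, with 185, 190, 43.2 and 223 CPM (edgeR adjusted p = 1.95e-06), and Slco1a4, with 150, 139, 30.4 and 141 CPM (edgeR adjusted p = 3.47e-06). Both are known from the blood-brain barrier and were lowest in library 3.

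At the edge of the level minimum, the lowest members were Slc7a4 at 5.21 CPM, Slc25a14 at 5.65 and Slc25a27 at 5.66 CPM, as counts over library totals. The genes just outside were Slc26a10 at 4.96 CPM, Slc35f2 at 4.53 and Slc9a2 at 4.26 CPM, each lowest in library 3. Of the 200 members, 179 reached 5 CPM in every library.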

How the data were processed

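The authors deposited raw counts per Ensembl gene, with 1 column for each library. Their processing used the GRCm38 build with STAR 2.7.2b, featureCounts 1.6.5 and bcl2fastq 2.20.0.422, per the submitters' processing notes. Not given in the sources used here are the annotation release, the strand setting and how reads with several matches were counted. Members that overlap or resemble other genes are therefore uncertain: 15 of 200 had under 80% of their 50-base stretches unique among exons, with both strands counted.

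Symbols, spans and exonic lengths came from GENCODE M21, which matched 55230 of 55471 genes. TMM factors were 1.00, 1.01, 0.963 and 1.03 (edgeR 4.0.16, R 4.3.3). The spread test set the deviance of an intercept-only negative binomial fit with trended dispersion against a chi-square with 3 degrees of freedom, in the 14112 genes that passed filterByExpr, with Benjamini-Hochberg adjustment. The quasi-likelihood alternative took an F distribution with 3 and 2.62 degrees of freedom. Further alternatives were DESeq2 1.42.0, other scalings and filters, and leaving out each library. The fit was checked on simulated data.

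The members and lists were chosen with earlier results of these data known. Genes were named by rule: the 3 highest per class by CPM per kb, all past the threshold, 3 on either side of the minimum, the 6 with the highest ratio for library 3 and for library 1, and members of the cell-type, partner and outside-symbol lists, 117 in all. The other members given with values (Slc1a1, Slc2a3, Slc4a7, Slc5a6, Slc8a1, Slc16a3, Slc16a7, Slc16a12, Slc20a1, Slc20a2, Slc25a4, Slc25a28, Slc38a2, Slc38a7, Slc38a9, Slc39a6, Slc48a1 and those in the closing section) were chosen after their values were seen. Some named genes are not reported here.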

Additional observations from a re-analysis of the deposited data

Results flagged for a closer look

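A library far from the 3 others, by Dixon's 95% limit for 4 values, was found for 10 of 200 members and 1 of 13 class sums; chance gives about 1 in 20. In library 3, Slc38a9 was high at 79.3 CPM and Slc13a3, a dicarboxylate carrier, at 23.9 CPM. Lower in library 3 than in the others were Slc7a11 at 6.16 CPM, the reduced folate carrier Slc19a1 at 20.3 CPM and the zinc carriers Slc39a10 at 66.5 CPM and Slc30a1 at 28.7 CPM. In library 1, Slc35b1 was high at 83.6 CPM, Slc50a1 at 62.3 CPM and the zinc carrier Slc30a5 at 95.6 CPM, while Slc25a44, a mitochondrial carrier, was low at 24.97 CPM. The amino acid class summed to 2315 CPM in library 1, below the 2665 to 2683 CPM of the others. None of these 10 genes passed the edgeR spread test.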

How the results depend on the processing

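The number of members past the spread threshold, 18, was 18 with DESeq2 size factors, with total counts and with only genes at 5 CPM or more, and 16 with no filter. It was 0 under the quasi-likelihood test and 0 by DESeq2, and ran from 0 to 18 when 1 library was left out. Without replicate 4 it was 11. The number of members was 198 to 203 with 1 library left out. Members lowest in library 3 numbered 74 with DESeq2 size factors, 93 with total counts and 116 with homeostatic scaling. Under the same scalings, 28.4%, 36.0% and 51.9% of all genes tested were lowest in library 3. Of the named genes, 24 lost their adjusted p under the quasi-likelihood test and 24 without library 3; the mean CPM of none moved by more than its SD under the scalings or with a library left out. With 1 group and 4 libraries of 23036202 to 24487418 counts, the tests describe spread only, and no paired analysis was possible because there is a single group.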
